A study of Homo sapiens with 6 samples.

Results

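The genes described here are 9 markers of luminal mammary epithelium and hormone signalling: the estrogen receptor ESR1, the membrane estrogen receptor GPER1, the progesterone receptor PGR, the transcription factors GATA3, FOXA1 and ELF3, and the keratins KRT8, KRT18 and KRT19. The rule lists them by name and uses no measured value, and each was read from the transcript cluster (the array's unit for one gene locus) that carried that symbol alone and had the highest mean over the 6 arrays. All 9 were found among the 22465 genes measured. RNA came from MDA-MB-231, an established triple-negative breast cancer line, meaning one that lacks estrogen receptor, progesterone receptor and amplified HER2. The DAXX OE cells carried a lentiviral cDNA of wild-type DAXX, a histone chaperone and transcriptional co-regulator. The DSM OE cells carried a DAXX cDNA in which both SUMO-interacting motifs, the short stretches that bind the small protein modifier SUMO, had been disabled. Both cDNAs were tagged, were driven by the cytomegalovirus immediate early promoter and were made stable by selection with puromycin at 2 µg/mL, after which the cells were grown without it. Each group was 1 such population, cultured for 24 h in complete DMEM. Each group had 3 arrays, labelled as biological replicates. With no unmodified cells analysed here, every difference is DSM OE against DAXX OE and none is a change from the parental line.

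Luminal cells line the ducts of the breast, and they express keratins 8, 18 and 19, which pair into the intermediate filaments of simple epithelia. GATA3 and FOXA1 are the transcription factors that maintain luminal identity, and FOXA1 opens chromatin for the estrogen receptor. Estrogen receptor alpha, the product of ESR1, is a nuclear receptor that switches on PGR among its classic targets, whereas GPER1 is a G protein-coupled receptor through which estrogen signals from membranes. ELF3 is an epithelium-specific ETS factor. Triple-negative lines of the mesenchymal kind, to which MDA-MB-231 belongs, keep simple keratins but have lost most of this program.

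GPER1 was the member with the clearest separation between the groups, so the sequence upstream of its annotated starts is given here. RefSeq lists more than one start for the gene, and 2 windows of 250 bases that end just before a start were matched, at chr7:1086868-1087117 and chr7:1087863-1088112 on the plus strand of GRCh38.p14. Capitals mark a TATA box (TATAAA) or a GC box (GGGCGG, or its complement on the other strand).
GPER1 window 1: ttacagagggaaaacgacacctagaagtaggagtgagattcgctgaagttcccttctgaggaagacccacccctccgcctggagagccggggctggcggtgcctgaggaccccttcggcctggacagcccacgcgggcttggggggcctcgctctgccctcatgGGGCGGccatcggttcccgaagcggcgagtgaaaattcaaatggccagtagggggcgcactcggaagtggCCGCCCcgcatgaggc
GPER1 window 2: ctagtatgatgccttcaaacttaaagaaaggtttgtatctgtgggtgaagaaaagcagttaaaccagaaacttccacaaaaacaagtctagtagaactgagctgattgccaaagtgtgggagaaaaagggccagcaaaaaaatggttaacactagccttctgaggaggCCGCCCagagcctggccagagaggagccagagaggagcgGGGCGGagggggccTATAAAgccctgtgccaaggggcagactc
The first window held 2 GC boxes and no TATA box. The second held 2 GC boxes and a TATA box that began 29 bases before the start. Of 34941 windows of the same length in the table, 42.5% held a GC box and 10.8% a TATA box on either strand. Windows were found for 7 of the 9 members, all but KRT18 and KRT19, and came to 20 in all. Among those 20, a GC box was in 12, a TATA box in 3 and the half-site of an estrogen response element (GGTCA) in 7, against 32.6% of all windows for the half-site. Windows 1 and 2 of PGR overlap almost wholly and hold the same GC boxes and half-site, so the counts are not of separate sequences. A match is a run of letters, and binding was not measured.

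All values are log2 signals after robust multi-array averaging (RMA). The median gene lay between 6.72 and 6.75 on each array, and the 23 background probe sets, which are graded by GC content, had a median between 4.26 and 4.46. DAXX OE replicate 1 stood apart: it correlated with the other arrays at 0.973 to 0.980 over all genes, against 0.996 to 0.998 among the other 5, and its signals were compressed, with an SD over genes of 1.63 against 1.82 to 1.85. Dim genes read high on it and bright genes low. DAXX itself, read from the cluster with the highest mean, was 8.86 ± 0.16 (SD, n = 3) in DAXX OE and 9.34 ± 0.03 in DSM OE. Of the 6 clusters that carry the DAXX symbol 5 were higher in DSM OE and 1 was lower, and a cluster does not separate the introduced cDNA from the cell's own gene. By their names all but 1 are alternate haplotype copies of the same locus, the cluster quoted above among them. The other, on the chromosome itself, read 8.74 ± 0.16 in DAXX OE and 9.21 ± 0.03 in DSM OE. Some copies read the same on every array, so the clusters are not separate readings. The array has only 3 samples a group, and an RMA signal carries no counting depth.

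None of the 9 members passed the test between the groups with all 6 arrays (limma, Benjamini-Hochberg adjusted p under 0.05 over all genes), where 0.0623% of all genes did, 13 higher and 1 lower in DSM OE. At an unadjusted limma p under 0.05, 2 members stood out, GPER1 lower and KRT19 higher in DSM OE, against 5.16% of all genes. None differed by more than 1.3-fold either way with an unadjusted limma p under 0.05, which 2.25% of all genes did. The study used cutoffs of this size for pathway analysis of changes from control cells, a different comparison. In 3 members the groups did not overlap, KRT8 and KRT19 higher and GPER1 lower in DSM OE, and the same held for 19.2% of all genes. Without DAXX OE replicate 1, 1 member passed the test, GPER1, and 1.25% of all genes did, 196 higher and 84 lower. The median difference over the members was 0.01 with 6 arrays, equal to that over all genes, with 5 members above 0 and 4 below.

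**Figure D1:**
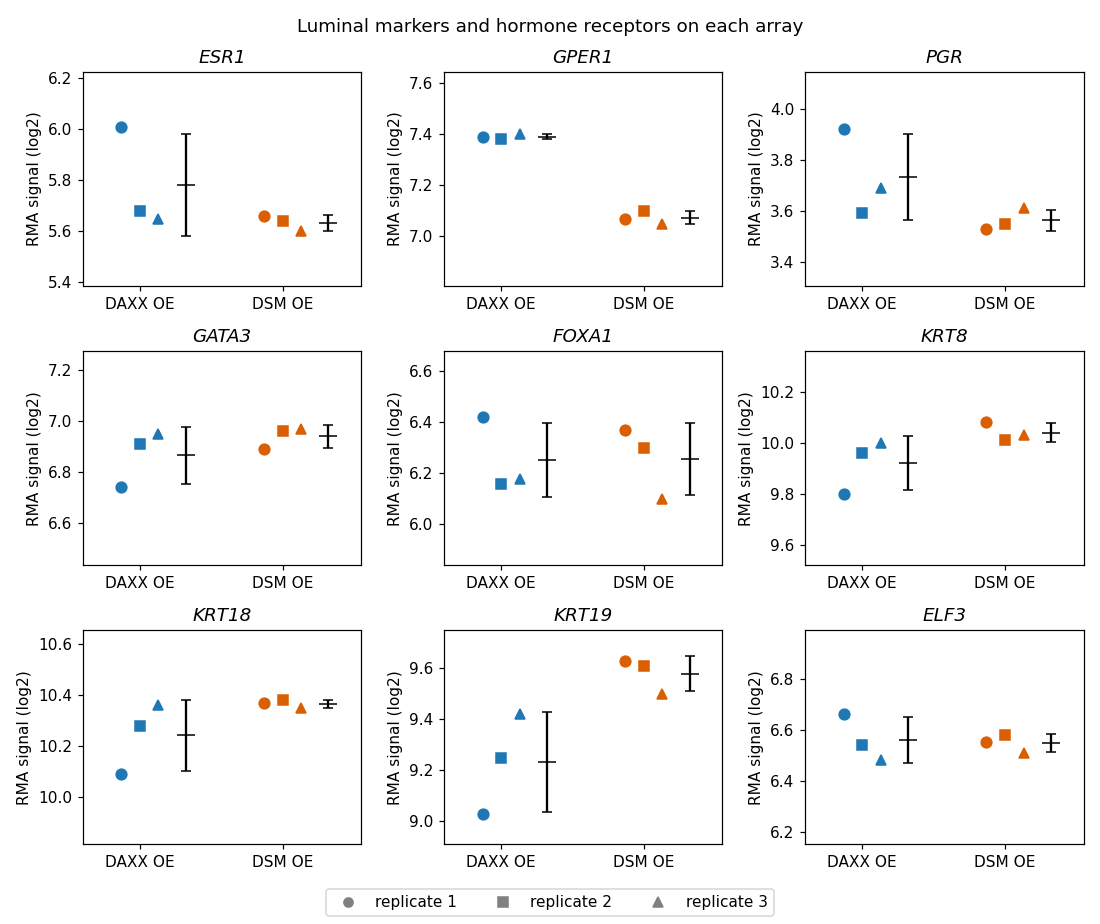
RMA signal (log2, vertical axis) of each member on each of the 6 arrays, DAXX OE in blue and DSM OE in orange, with the symbol giving the replicate. Bars are the mean ± SD of 3 arrays. The axes share one length but not one start. The GPER1 groups lie 0.282 apart with almost no spread, whereas for most other members DAXX OE replicate 1 is the array farthest from the rest.

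Among the receptors, GPER1 was lower in DSM OE cells. Its signals were 7.39, 7.38 and 7.40 in DAXX OE and 7.07, 7.10 and 7.05 in DSM OE. Every DSM OE array lay below every DAXX OE array, and the highest DSM OE value was 0.282 under the lowest DAXX OE value. The means were 7.39 ± 0.0079 and 7.07 ± 0.024 (SD, n = 3), the smallest SD in DAXX OE of any member. That SD includes DAXX OE replicate 1, where GPER1 deviated by 0.00 from replicates 2 and 3 but genes of like signal by a median of -0.26. The difference of -0.31 (SE 0.074, 95% interval -0.49 to -0.14) is a 1.24-fold lower signal in DSM OE, with a limma p of 0.0035 and an adjusted p of 0.569. The test uses a spread that limma shares over all genes. Without DAXX OE replicate 1 the difference was the same size, -0.31 (SE 0.039, interval -0.41 to -0.22), and the adjusted p from limma was 0.0262. GPER1 therefore passed the threshold in that fit and not with all 6 arrays. With the bulk signal, fewer expressing cells and less RNA per cell cannot be told apart. On every array GPER1 lay above 17 or 18 of the 23 background sets and above the median gene.

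The ESR1 difference was within its spread. It read 6.01, 5.68 and 5.65 in DAXX OE and 5.66, 5.64 and 5.60 in DSM OE. Only DAXX OE replicate 1 was high, and the other 5 arrays lay within 0.08 of each other. The difference was -0.15 (SE 0.11, interval -0.41 to 0.12, limma adjusted p = 0.682) with 6 arrays and -0.03 (SE 0.0411, interval -0.13 to 0.07, adjusted p = 0.787) without that array. The signal lay below the median gene on every array and above 13 to 15 of the 23 background sets.

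PGR, which estrogen receptor alpha induces in luminal cells, was the dimmest member against background. Its 3 DAXX OE signals were 3.92, 3.59 and 3.69, and those of DSM OE were 3.53, 3.55 and 3.61. The groups overlapped, and on each array PGR lay under the median of the background sets, above 10 or 11 of the 23. The difference of -0.17 (SE 0.11, interval -0.41 to 0.08, limma adjusted p = 0.682) shrank to -0.07 (interval -0.19 to 0.05) without DAXX OE replicate 1. Such a signal says little of PGR RNA, and whether a difference could be detected there was not tested.

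None of the luminal transcription factors passed the test in any setting. GATA3 read 6.74, 6.91 and 6.95 in DAXX OE and 6.89, 6.96 and 6.97 in DSM OE. Apart from the low DAXX OE replicate 1, these values all fell within 0.08 of each other. The difference was 0.07 (SE 0.089, interval -0.14 to 0.28, limma adjusted p = 0.714) and became 0.01 (interval -0.09 to 0.11) without that array. GATA3-AS1, the RNA transcribed from the opposite strand next to GATA3, has a cluster of its own and averaged 5.70 in DAXX OE and 5.72 in DSM OE.

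FOXA1 varied as much within the groups as between them. It read 6.42, 6.16 and 6.18 in DAXX OE and 6.37, 6.30 and 6.10 in DSM OE. The lowest and the second highest of the 6 values were both DSM OE arrays. The difference was 0.01 (SE 0.11, interval -0.26 to 0.27, limma adjusted p = 0.98), and it took either sign when single arrays were left out. ELF3 read 6.66, 6.54 and 6.48 in DAXX OE against 6.55, 6.58 and 6.51 in DSM OE, so that all DSM OE arrays lay inside the DAXX OE range. Its difference of -0.01 (SE 0.085, interval -0.21 to 0.19, limma adjusted p = 0.958) also changed sign between settings. The intervals of both factors leave room for a shift of about 0.2 either way. FOXA1 lay above 14 to 16 of the 23 background sets, ELF3 above 15 to 17 and GATA3 above 16 or 17, and only GATA3 averaged above the median gene.

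The 3 keratins were bright on every array, above 22 of the 23 background sets, so the simple-epithelial keratins that mark luminal cells were present in both populations. KRT19, an acidic keratin of luminal cells, had the largest difference of the members with 6 arrays as deposited, while that of GPER1 was larger in size without DAXX OE replicate 1, after quantile normalization and after cyclic loess. Its DAXX OE signals were 9.03, 9.25 and 9.42 and its DSM OE signals 9.63, 9.61 and 9.50. No DAXX OE array reached the lowest DSM OE array, and the closest pair was 0.0813 apart. The difference was 0.35 (SE 0.12, interval 0.08 to 0.62), a 1.27-fold higher signal in DSM OE, with a limma p of 0.0181 and an adjusted p of 0.682. Without DAXX OE replicate 1, the lowest array, it was 0.25 (SE 0.0675, interval 0.08 to 0.41, adjusted p = 0.168), and KRT19 did not pass the threshold in any setting. Its interval held 0 without DSM OE replicate 1 (-0.03 to 0.67) and without DSM OE replicate 2 (-0.02 to 0.69).

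KRT8 and KRT18, the basic and acidic partners of the simple-epithelial filament, differed less. KRT8 read 9.80, 9.96 and 10.00 in DAXX OE and 10.08, 10.01 and 10.03 in DSM OE. The groups met without overlapping, 0.0047 apart. The difference was 0.12 (SE 0.088, interval -0.09 to 0.32, limma adjusted p = 0.682) and 0.06 (interval -0.04 to 0.16) without DAXX OE replicate 1. KRT18 read 10.09, 10.28 and 10.36 in DAXX OE and 10.37, 10.38 and 10.35 in DSM OE. DAXX OE replicate 3 lay inside the narrow DSM OE range, which had an SD of 0.012. Its difference was 0.13 (SE 0.094, interval -0.09 to 0.35, limma adjusted p = 0.682) and 0.05 (interval -0.05 to 0.15) without DAXX OE replicate 1.

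Log2 ratios of the keratins were also taken within each array, where a shift common to bright genes largely cancels. KRT19 minus KRT18 was -1.063, -1.029 and -0.941 in DAXX OE and -0.735, -0.771 and -0.857 in DSM OE. The ratio was higher in every DSM OE array, by 0.223 on average, and DAXX OE replicate 1 no longer stood apart. An exact permutation test, 2-sided, gave p = 0.1, the smallest p that 20 arrangements of 3 against 3 arrays allow. KRT19 minus KRT8 differed likewise by 0.231 with exact permutation p = 0.1. KRT8 minus KRT18, the ratio of a basic to an acidic partner, ran from -0.289 to -0.354 in DAXX OE and from -0.294 to -0.372 in DSM OE. Its difference of -0.0075 had an exact permutation p of 0.7. These 3 ratios are one family and share genes. A ratio of 2 probes shows unequal change between the groups and gives no relative amount of the transcripts.

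Keratin genes have many processed pseudogenes, so signals of near-identical copies could be shared between clusters. A second cluster with the KRT8 symbol lies, by its name, on another chromosome than the KRT8 gene, so it is not a second reading of that locus. It read 8.71 to 9.03 in DAXX OE and 8.97 to 9.03 in DSM OE, with a difference of 0.11 (SE 0.11). The pseudogene clusters KRT8P11, KRT8P12, KRT8P41, KRT18P52 and KRT18P55 differed by -0.07, 0.16, -0.07, -0.03 and -0.09, and in each the groups overlapped. How much of any keratin signal comes from a pseudogene was not tested.

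**Figure D2:**
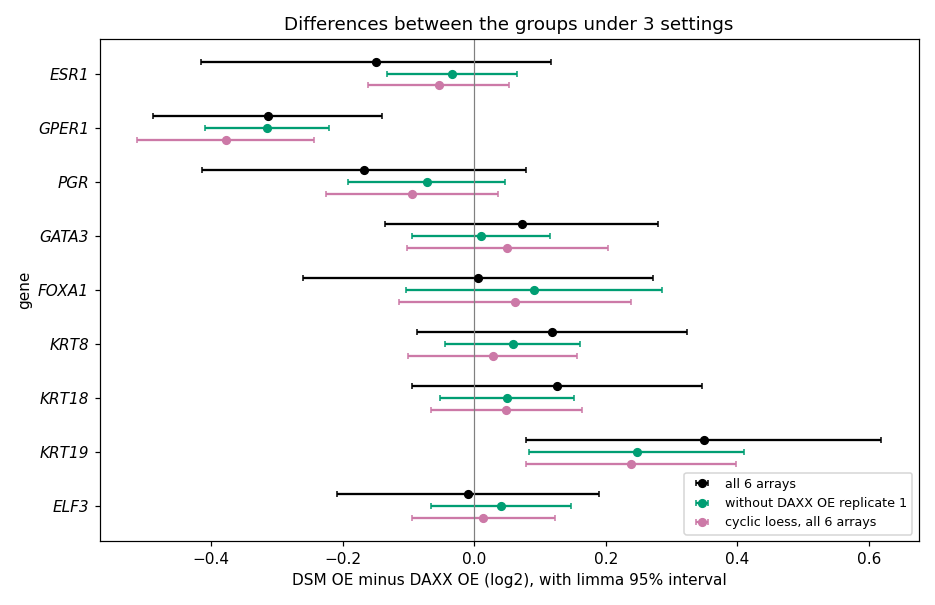
Difference of DSM OE minus DAXX OE (log2, horizontal axis) for each member, with limma's 95% interval, from all 6 arrays (black), without DAXX OE replicate 1 (green) and after cyclic loess normalization of all 6 arrays (pink). The GPER1 and KRT19 intervals keep clear of 0 in the 3 settings drawn. The differences are -0.31, -0.31 and -0.38 for GPER1 and 0.35, 0.25 and 0.24 for KRT19. The other 7 members' intervals hold 0 in each. In settings not drawn, the KRT19 interval holds 0 without DSM OE replicate 1 and without DSM OE replicate 2.

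The spread among the DAXX OE arrays followed signal level for most members. In DAXX OE replicate 1, against the mean of replicates 2 and 3, ESR1, PGR, FOXA1 and ELF3 were higher by 0.35, 0.29, 0.26 and 0.15. The median gene of like signal was higher by 0.31, 0.24, 0.25 and 0.19 in the same order. The keratins KRT8, KRT18 and KRT19 deviated by -0.18, -0.23 and -0.31, where genes of like signal deviated by -0.28. GPER1 and GATA3 departed from their levels, with deviations of 0.00 and -0.19 where genes of like signal had medians of -0.26 and -0.03. What set that array apart was not tested, and no scan date or batch is labelled.

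**Figure D3:**
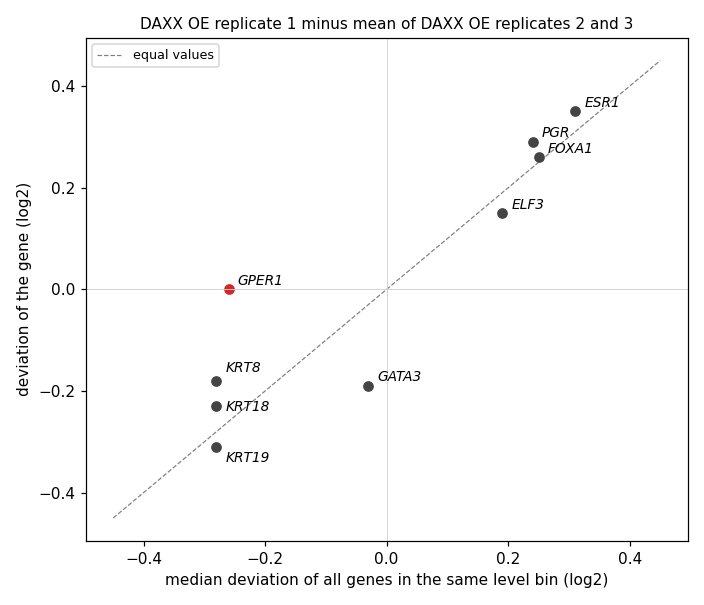
Deviation of each member in DAXX OE replicate 1 from the mean of DAXX OE replicates 2 and 3 (log2, vertical axis) against the median deviation of all genes in the same of 10 bins of signal level (log2, horizontal axis). The dashed line marks equal values, and GPER1 (red) lies 0.26 above it while 4 dim members and the 3 keratins lie near it.

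For the 5 members above the median gene, the nearest patterns were sought among 11231 other genes above that level, by the root mean square distance between mean-centred values over the 6 arrays. As a neighbour is picked by these values, its difference between the groups follows from that choice and is no added support. MAGEA3, a cancer-testis antigen of the MAGE family, was nearest to GPER1 at a distance of 0.0515. It read 8.32, 8.18 and 8.18 in DAXX OE and 7.97, 7.96 and 7.93 in DSM OE. Its difference was -0.27 (limma adjusted p = 0.682), and MAGEA3 belongs to a family of near-identical copies. FIBCD1, a membrane receptor that binds acetylated residues, came next at 0.0546 with a difference of -0.22.

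KRT19 was most like PLXNA1, a semaphorin receptor, and ANKH, a membrane transporter, at distances of 0.0113 and 0.0171. PLXNA1 read 8.34, 8.58 and 8.73 in DAXX OE and 8.93, 8.93 and 8.79 in DSM OE, and both genes differed by 0.34. KRT8 lay nearest to BNIP3L, a mitophagy receptor, and MAZ, a zinc finger factor, at 0.00716 and 0.00787. KRT18 lay nearest to C19orf47 and MTCH1, at 0.00781 and 0.0095, and GATA3 to SETD7, a lysine methyltransferase, and LARP1, an RNA-binding protein, at 0.0151 and 0.0154. These 8 neighbours all read lower on DAXX OE replicate 1 than on any other array, as their members did, and the neighbours of GPER1, which did not, were the most distant of the 5 pairs.

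Genes related to the members and markers of other cell types were followed in 14 lists of 151 different genes. With 6 arrays none of them passed the test, and the lowest limma adjusted p was 0.403, for SPDEF. Without DAXX OE replicate 1, 2 of the 151 passed, AGR2 and MARVELD2, where 1.25% of all genes did. Among other luminal genes 18 of 20 were measured, 14 were above 0 and 4 below, and the median difference was 0.12. Without DAXX OE replicate 1 it was 0.03, with 11 above and 7 below. For scale, the median over all genes was 0.01, and over the 11232 genes above the median level it was 0.0952.

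SPDEF, an ETS factor of luminal and secretory epithelium, read 7.67, 7.66 and 7.82 in DAXX OE and 8.29, 8.26 and 8.06 in DSM OE. Its groups did not overlap, and the difference was 0.49 (SE 0.098). Without DAXX OE replicate 1 it was 0.47 with a limma adjusted p of 0.0685. AGR2, a protein disulfide isomerase of secretory and luminal cells, read 4.43, 4.41 and 4.46 against 4.85, 4.73 and 4.73, close to the background median. AGR2 differed by 0.34 (SE 0.08, limma adjusted p = 0.572) and passed the test without that array (0.33, adjusted p = 0.0483).

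Among 21 epithelial junction genes and their regulators 9 were above 0 and 12 below, with a median of -0.10 that became 0.04 without DAXX OE replicate 1. MARVELD2, the tight junction protein tricellulin, read 5.67, 5.91 and 6.00 in DAXX OE and 6.33, 6.41 and 6.37 in DSM OE. The groups did not overlap, and the difference was 0.51 (SE 0.1, limma adjusted p = 0.416), and without DAXX OE replicate 1 it passed the test at 0.42 (adjusted p = 0.0213). CLDN7, an epithelial claudin, differed by 0.44 (SE 0.12, limma adjusted p = 0.663). CDH1, the E-cadherin gene and a defining epithelial marker singled out after its values were known, read 5.84, 5.52 and 5.57 against 5.47, 5.53 and 5.43 and differed by -0.16 (SE 0.11, limma adjusted p = 0.682). CDH1 differed by -0.06 without DAXX OE replicate 1, its highest array.

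No gene of the hormone pathway around the receptors passed the test either. Of 18 estrogen receptor target genes 17 were measured, 9 above 0 and 8 below, with a median of 0.02. IGFBP4, a binding protein for insulin-like growth factors, read 10.79, 10.95 and 11.08 in DAXX OE and 11.42, 11.37 and 11.28 in DSM OE and differed by 0.41 (SE 0.1, limma adjusted p = 0.597). CA12, a carbonic anhydrase that is also on the luminal list, differed by 0.34 (SE 0.13, limma adjusted p = 0.682). TFF1, the classic estrogen-induced secreted peptide and named outside the rule, averaged 6.03 and 6.01.

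Of 24 other steroid and hormone receptors 22 were measured, and their median difference was also 0.02, with 12 above 0 and 10 below. That median was -0.02 without DAXX OE replicate 1, with 8 above and 14 below. PAQR5, a membrane progesterone receptor, read 7.34, 7.92 and 8.05 in DAXX OE and 8.24, 8.23 and 8.12 in DSM OE (0.42, SE 0.18), or 0.21 without DAXX OE replicate 1. THRB, a thyroid hormone receptor, differed by -0.23 (SE 0.11) and by -0.33 without DAXX OE replicate 1, where its limma adjusted p was 0.0528. The 11 measured nuclear receptor coregulators were above 0 with 6 arrays, with a median of 0.20. Without that array 8 were above 0 and 3 below, with a median of 0.13, and after cyclic loess the median was 0.08. PELP1, a co-activator of the estrogen receptor, differed by 0.27 (SE 0.077) and TLE1, a co-repressor, by 0.39 (SE 0.15), both with a limma adjusted p of 0.682. Without that array they differed by 0.26 and 0.22.

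Desmosome and plectin-type genes, which anchor keratin filaments, had 10 of 14 members above 0 and a median of 0.16 (0.06 without DAXX OE replicate 1). JUP, plakoglobin, read 8.20, 8.30 and 8.51 in DAXX OE and 8.85, 8.76 and 8.62 in DSM OE and differed by 0.41 (SE 0.11). DSP, desmoplakin, read 8.26, 8.90 and 9.02 against 9.20, 9.48 and 9.21 and differed by 0.57 (SE 0.2), or by 0.34 without the low DAXX OE replicate 1. Both had a limma adjusted p of 0.682 with 6 arrays. Of 12 measured other keratins 9 were below 0 (median -0.11), and without that array 6 of the 12 were (median 0.01). KRT5, the basal keratin, read 6.86, 6.92 and 6.26 in DAXX OE and 6.21, 6.25 and 6.28 in DSM OE, so that DAXX OE replicates 1 and 2 were high and replicate 3 was not (-0.43, SE 0.17, limma adjusted p = 0.682). KRT7, a simple-epithelial keratin, differed by 0.14, or 0.09 without DAXX OE replicate 1.

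The paralogs of GATA3 and FOXA1 included GATA6, which read 8.00, 8.36 and 8.41 in DAXX OE and 8.72, 8.62 and 8.74 in DSM OE. GATA6 differed by 0.44 (SE 0.12, limma adjusted p = 0.682) and by 0.31 without DAXX OE replicate 1 (adjusted p = 0.0528). FOXA2 differed by 0.24, or 0.13 without that array, and the list of 7 had a median of 0.05 both ways. Relatives of ELF3 had a median of 0.12 over 10 genes, 8 above 0 and 2 below. Without that array the median was 0.03, with 6 above and 4 below, and after cyclic loess it was -0.01. Lowest in p were SPDEF and EHF, another epithelial ETS factor, at 0.28 with 6 arrays and 0.13 without that array.

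**Figure D4:**
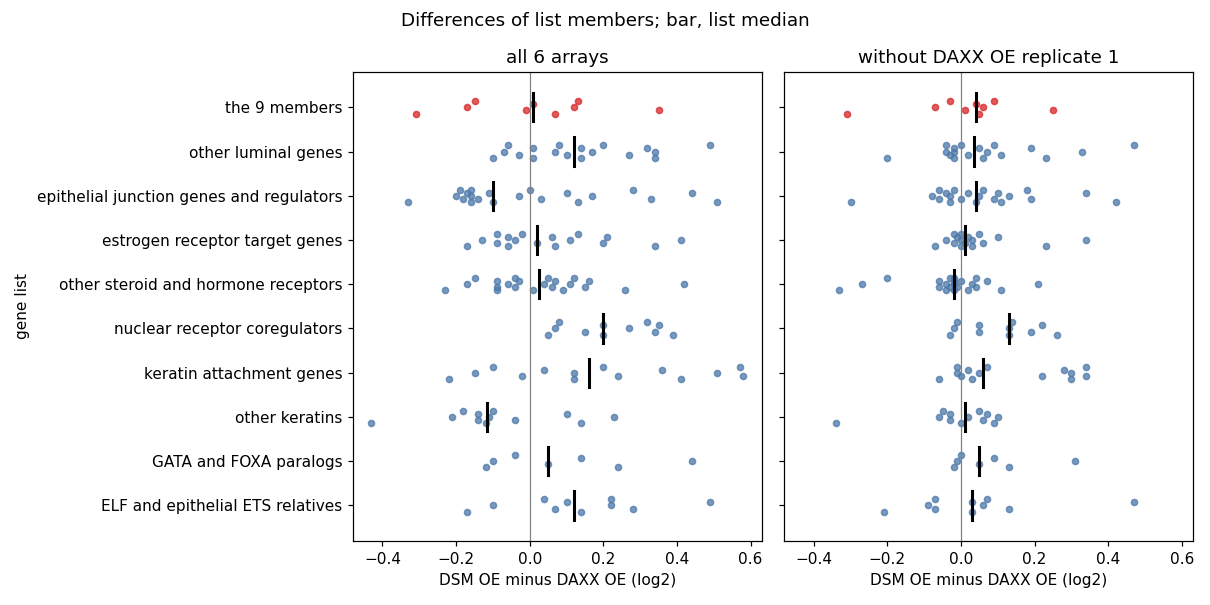
Difference of DSM OE minus DAXX OE (log2, horizontal axes) for every measured gene of the 9 members (red) and of 9 related lists (blue), with all 6 arrays at left and without DAXX OE replicate 1 at right. Black bars are list medians, which run from -0.11 to 0.20 at left and from -0.02 to 0.13 at right.

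Markers of other cell types were read beside these values. Of 10 basal-like markers 5 were measured, all below 0 with a median of -0.09 (-0.02 without DAXX OE replicate 1), KRT5 and KRT14 (-0.14, or -0.06 without that array) leading. Their summed linear signal was 516 to 627 in DAXX OE and 517 to 523 in DSM OE. Of 10 mesenchymal-like markers 9 were measured, 4 above 0 and 5 below, with a median of -0.01. Without DAXX OE replicate 1 the median was -0.05, with 1 above 0 and 8 below. Their summed signal was 7079 to 8005 in DAXX OE against 7547 to 7718 in DSM OE. VIM, vimentin, averaged 11.86 and 11.87, and SNAI2, the repressor Slug, differed by -0.24 (SE 0.12) and by -0.35 without that array (limma adjusted p = 0.0565), with SPARC at -0.10 (-0.02 without it). The line thus carried bright vimentin together with bright simple keratins in both groups.

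Fibroblast markers, 6 of 6, had a median of -0.04 (0.05 without that array) and a summed signal of 351 to 399 in DAXX OE and 361 to 385 in DSM OE, with DCN at -0.20 and COL1A1 at 0.10. Endothelial markers, 5 of 5, summed to 319 to 350 and 302 to 318, with 4 below 0 and KDR above at 0.14. CDH5 differed by -0.31 and TEK by -0.20, or by -0.32 and -0.07 without DAXX OE replicate 1. Immune cell markers, 5 of 6 measured, summed to 1351 to 1551 in DAXX OE and 1678 to 1764 in DSM OE. Most of that sum was CD68, a lysosomal protein that many cell lines express, which differed by 0.24. LYZ and CD14 differed by 0.40 and 0.28, each of the 3 with a limma adjusted p of 0.682, while PTPRC, the pan-leukocyte antigen, read 4.39 to 4.64 over the 6 arrays, near the background median. PTPRC differed by -0.15, with groups that did not overlap, and CD3E by -0.13, with groups that did. Their part in the members' differences was not tested.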

How the data were processed

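Total RNA (200 ng) of 3 DAXX OE and 3 DSM OE cultures of MDA-MB-231 was hybridised to GeneChip HTA 2.0 arrays, a 1-colour platform. The authors deposited log2 values computed by RMA, with Affymetrix Expression Console 1.3 per the submitters' processing notes. ComBat is named in the study's methods for arrays collected at different times, with its use on these arrays not given in the sources used here. The array's genome build is likewise not given.

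Of 67528 transcript clusters, 23781 carried 1 gene symbol in the platform annotation. Each gene was read from its brightest cluster (22465 genes, dim ones included). The groups were compared by limma 3.58.1 in R 4.3.3 (lmFit, eBayes, 2-sided, no block, 4 residual degrees of freedom before moderation), with Benjamini-Hochberg adjustment over all genes. The fit was tested on simulated data with independent noise and no compressed array. That test therefore does not cover how DAXX OE replicate 1 affects the calls. Intervals are limma's at 95%. As the arrays stem from 1 population per construct, p-values measure the spread between cultures of these populations. Where signals of different genes are ranked or summed, they are not relative amounts of RNA, since probes differ in response.

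Named genes were the 9 members, per list the members past the threshold or else the 2 with the lowest unadjusted p, the 2 nearest patterns of each member above the median level, and DAXX. GATA3-AS1, the keratin pseudogenes, CDH1, TFF1, VIM, CD14, PTPRC, CD3E and KDR were named outside this rule, with their values seen. The members and lists were chosen with earlier results of these data known. Alternatives were a replicate block, single arrays left out, other normalizations (quantile, median centring, cyclic loess), trended or robust moderation, a filter on dim genes, the methods' t-test, other summaries of clusters and a stricter threshold. The keratin ratios under left-out arrays and other scalings were added after seeing the data. Motifs were searched as exact letters on both strands of RefSeq windows.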

Additional observations from a re-analysis of the deposited data

How the results depend on the processing

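The count of genes past the threshold, 14 with all 6 arrays, was 25 after cyclic loess, 40 with the replicate block, 5 among genes above the median level, 23 over every transcript cluster, 2 at an adjusted p under 0.01 and 1 by the methods' t-test after adjustment. It ran from 1 to 280 as single arrays were left out, with 280 reached only without DAXX OE replicate 1. The count of members past the threshold ran from 0 to 1 when arrays were left out, the 1 being GPER1 without DAXX OE replicate 1, and was 0 under every other alternative, the replicate block included. Members at the study's fold and p numbered 0 to 1 when arrays were left out (KRT19 without DAXX OE replicate 3 and without DSM OE replicate 3) and 1 after quantile normalization (GPER1, 1.31-fold lower in DSM OE). The adjusted p of GPER1 ran from 0.0262 to 0.911 over its alternatives and its difference from -0.39 to -0.30. Of the 9 members 7 kept their sign under every alternative. FOXA1, at 0.01, ran from -0.050 to 0.0908 as arrays were left out, and ELF3, at -0.01, from -0.0486 to 0.0409, with 0.0139 after cyclic loess. The cause was not tested. The replicate number was not used as a pairing, since it is not stated to mark a shared culture day. Deviations of same-numbered arrays from their group means correlated at -0.05, -0.298 and 0.167. With 3 arrays a group and DAXX OE replicate 1 apart from the rest, these correlations cannot decide whether the arrays were paired. Under the replicate block GPER1 had a difference of -0.31 with a limma adjusted p of 0.594. The number of arrays limits the precision, and PGR, below the background median, limits what can be said of it.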
